A study of Mus musculus with 8 samples.

Results

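Gene desert peaks are the HA ChIP-seq peaks whose summit lay in sequence far from any gene. A peak was taken when its summit was on chromosomes 1 to 19, X or Y, outside every GENCODE gene, more than 100 kb from the nearest transcript start and not inside a soft-masked repeat run of 5 kb or more. These conditions admitted 172.1 Mb, or 6.50% of the 2648 Mb of assembled sequence, spread over 1482 gene-free intervals. In the C29F4 list, 489 of 11010 peaks were gene desert peaks (4.44%, 95% interval 4.06 to 4.84%). The ab9110 list from DMSO-treated cells held 1524 of 40816 (3.73%, 3.55 to 3.92%), and the ab9110 list from dTAG-treated cells held 276 of 16324 (1.69%, 1.499 to 1.90%). The list called on input chromatin after dTAG held 96 of 2050 (4.68%, 3.81 to 5.69%). Peak lists hold no expression values, so the labelled cell type could not be set against markers.

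All 8 samples came from the EHMT2-dTAG-mcherry line, mouse embryonic stem cells (mESCs) of BL6/129 hybrid background, and each was collected after 24 h of treatment. In these cells, DMSO controls included, the endogenous Ehmt2 gene is fused in frame to a degron and to the hemagglutinin (HA) epitope, so that the protein can be pulled down through HA and degraded by adding dTAG. The HA antibody C29F4 was used on DMSO-treated cells only (2 ChIP and 2 input samples, from independent clones per the study's methods, with ChIP peaks called on merged replicates). The HA antibody ab9110 was used on 1 ChIP and 1 input sample from each of the DMSO and dTAG treatments. Each condition was therefore 1 list, no difference between lists has a replicate check, and every interval below covers counting error only. The C29F4 input and the ab9110 DMSO input were not analysed here. No list tells signal of the tagged protein apart from other DNA that an HA antibody retains, and the dTAG list, made after removal of the tag, is the nearest control for that. C29F4 has no such list.

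EHMT2, also called G9a, places the repressive H3K9me2 mark with its partner EHMT1, and needs other DNA-bound proteins to reach its sites. H3K9me2 can cover long stretches of chromatin. Gene deserts are long stretches without genes, and some of them carry distant enhancers of developmental genes. Whether the mark lay on the intervals used here was not analysed.

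The first sequences shown are those around the summits of the 5 C29F4 desert peaks of highest fold among those shared with ab9110 in DMSO but with neither the dTAG nor the input list. Fold is the fragment pileup over the local background at the summit, with a constant added to each. Each line gives the protein-coding genes on either side, the mm10 position and 100 forward-strand bases with the summit at base 51, in lower case where no searched motif was matched.
Nphp4 and Ajap1, chr4:152799583-152799682: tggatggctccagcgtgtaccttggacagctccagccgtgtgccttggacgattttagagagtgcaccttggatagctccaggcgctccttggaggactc
Pard3 and Nrp1, chr8:127995019-127995118: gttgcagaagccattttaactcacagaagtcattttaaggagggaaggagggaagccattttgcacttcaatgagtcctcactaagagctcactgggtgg
Lrp1b and Kynu, chr2:43365914-43366013: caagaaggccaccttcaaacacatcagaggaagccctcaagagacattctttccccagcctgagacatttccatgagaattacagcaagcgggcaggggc
Ddx18 and Dpp10, chr1:122086865-122086964: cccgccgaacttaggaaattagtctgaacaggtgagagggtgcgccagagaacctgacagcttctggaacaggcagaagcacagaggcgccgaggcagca
Tmem229a and Gpr37, chr6:25307539-25307638: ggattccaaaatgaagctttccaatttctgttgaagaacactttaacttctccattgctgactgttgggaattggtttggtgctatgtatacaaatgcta
The first window, from the peak of highest fold in C29F4 (19.9), held 4 copies of CTTGGA. It was free of soft-masked sequence, as was the third. The fourth was soft-masked throughout, where the placement of multimapping reads is uncertain.

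The next windows are from the 3 C29F4 desert peaks of highest fold that were called with ab9110 in both treatments, the sites where HA signal was still called after depletion. Capitals mark a searched GA repeat.
Tle4 and Psat1, chr19:14835934-14836033: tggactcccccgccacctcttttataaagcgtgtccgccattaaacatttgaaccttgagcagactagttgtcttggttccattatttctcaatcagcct
Abca13 and Vwc2, chr11:10051662-10051761: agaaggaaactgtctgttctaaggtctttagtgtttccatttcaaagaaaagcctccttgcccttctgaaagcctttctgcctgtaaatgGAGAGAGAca
Rap2b and Arhgef26, chr3:61796207-61796306: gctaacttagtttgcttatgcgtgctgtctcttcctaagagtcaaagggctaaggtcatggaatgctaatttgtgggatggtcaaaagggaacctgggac
The first of them was 68.0% soft-masked over 300 bp around the summit, the second 0% and the third 25%.

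The windows below are from peaks that a single ab9110 list held. The first 3 are the dTAG desert peaks of highest fold with no peak in any other list, and the last is a DMSO desert peak with no peak in any other list, shown because of its repeat. Capitals mark a SOX motif.
Ptprd and Tyrp1, chr4:78513378-78513477: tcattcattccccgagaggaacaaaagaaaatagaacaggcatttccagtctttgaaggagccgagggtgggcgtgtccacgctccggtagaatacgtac
Nectin3 and Dppa4, chr16:47954571-47954670: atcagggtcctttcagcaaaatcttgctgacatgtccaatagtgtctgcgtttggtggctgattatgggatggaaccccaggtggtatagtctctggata
Rorb and Anxa1, chr19:19560567-19560666: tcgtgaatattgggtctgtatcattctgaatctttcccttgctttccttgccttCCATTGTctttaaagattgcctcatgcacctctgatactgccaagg
Lrrtm4 and Gcfc2, chr6:80980254-80980353: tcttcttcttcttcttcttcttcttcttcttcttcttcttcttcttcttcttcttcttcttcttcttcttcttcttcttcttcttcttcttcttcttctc
The last window was a run of 32 TTC units. The windows beside Ptprd and beside Nectin3 were 98.3% and 99% soft-masked over 300 bp, and the window beside Rorb was 5.33% soft-masked.

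Of the 10 motifs searched, the ESRRB motif had the highest share in C29F4 desert peaks relative to the admitted sequence, 8.82 times. Shown here are 29-base pieces from the 6 C29F4 desert peaks of highest fold that held it. They were chosen after their values were seen. Capitals mark TCAAGGTCA or its reverse complement, on the forward strand of mm10.
Tmem229a and Gpr37, chr6:25307516-25307544: ccaaggaaaaTCAAGGTCAccaaggattc
Rap2b and Arhgef26, chr3:61796120-61796148: attccttagtTCAAGGTCAgcctgggaca
Clec14a and Sec23a, chr12:58473444-58473472: tccggatgccTGACCTTGAataaaactga
Khdrbs3 and Fam135b, chr15:70416269-70416297: tagtcaagggTGACCTTGAaattattgtc
Rap2b and Arhgef26, a further peak, chr3:61816955-61816983: cccagctggaTGACCTTGAacaaagcact
Cdh12 and Cdh18, chr15:22086980-22087008: agccagaaccTGACCTTGAtgccactagg
The motif lay 59, 123, 48, 137, 78 and 32 bp from the summit in the order shown. Both pieces beside Rap2b come from the same gene-free interval.

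Desert sequence carried fewer peaks per Mb than the rest of the genome in every list, and the deficit was deepest after dTAG. C29F4 desert peaks had a density of 2.84 per Mb of admitted sequence against 4.25 per Mb elsewhere, a ratio of 0.669 (95% interval 0.609 to 0.732). For ab9110 DMSO the densities were 8.86 and 15.9 per Mb, a ratio of 0.558 (0.530 to 0.587). After dTAG they were 1.60 and 6.48 per Mb, a ratio of 0.247 (0.219 to 0.279). The input list had 0.558 and 0.788 per Mb, a ratio of 0.708 (0.571 to 0.869). The interval of the input ratio overlapped that of C29F4 and that of ab9110 DMSO, and lay above that of dTAG. With long repeat runs kept in the desert class, the C29F4 ratio was 1.095 (1.02 to 1.18). The input ratio was then 1.15 (0.972 to 1.35), an interval that includes 1. The deficit in those lists thus held for desert sequence without such runs.

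Within gene-free sequence the ChIP densities were lower farther from starts, and the intervals of the nearest and farthest class did not overlap in any ChIP list. C29F4 had 3.23 peaks per Mb at 50 to 100 kb from a start, 3.01 at 100 to 200 kb and 2.31 (1.87 to 2.81) over 200 kb. The ab9110 DMSO list went from 10.9 to 8.99 and 8.44 per Mb, and the dTAG list from 2.28 to 1.71 and 1.28. Input densities were 0.544, 0.561 and 0.547 per Mb, which lay within each other's intervals. The farthest C29F4 desert peak was 593 kb from a start, and 97 of the 489 lay over 200 kb away. At the 100 kb limit, the 82 C29F4 peaks at 100 to 110 kb had a median fold of 3.84, and the 85 gene-free peaks at 90 to 100 kb had 3.67.

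**Figure D1:**
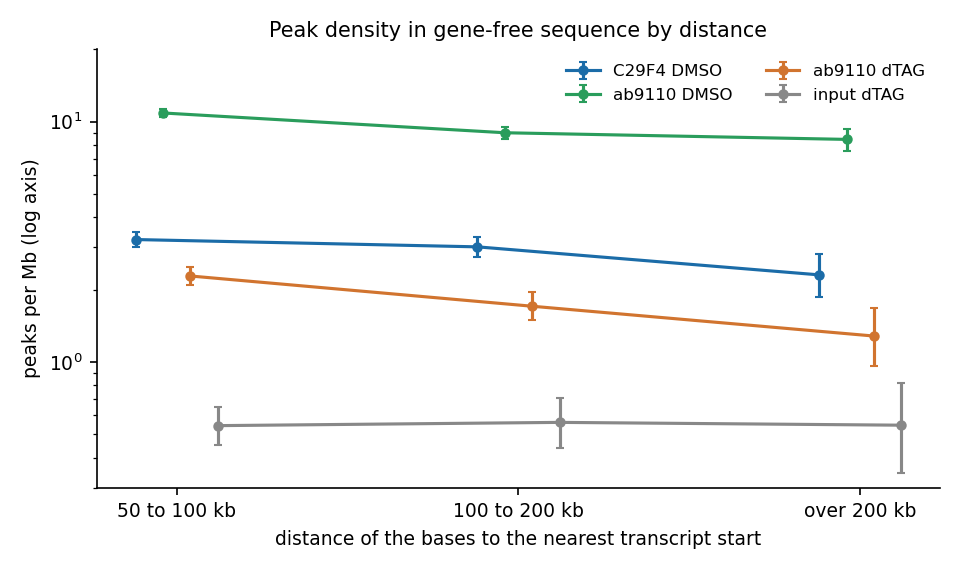
Peaks per Mb (log axis) in gene-free sequence outside long repeat runs, by distance to the nearest transcript start, for the 4 lists; points are densities and bars exact Poisson 95% intervals. The 3 ChIP lists have their lowest density over 200 kb (2.31, 8.44 and 1.28 per Mb), and the input list stays between 0.544 and 0.561.

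Desert peaks had a lower median width and a lower median pileup than the other peaks of each list. Median width was 451 bp in C29F4, 333.5 bp in ab9110 DMSO, 377.5 bp after dTAG and 187.5 bp in input, where the other peaks of these lists had 510, 433, 567 and 209 bp. Gene-near intergenic peaks, outside genes and long repeat runs but within 100 kb of a start, had 457, 414, 521 and 205 bp. Their median pileups were 25, 13, 11 and 9 fragments. In C29F4 the desert width was thus close to that of gene-near peaks. C29F4 desert peaks had folds from 1.87 to 19.9 with a median of 3.67, the same median as the other C29F4 peaks. Their median pileup was 21 fragments over a background of 4.25, where other peaks had 28 over 6.95, and their median -log10 q was 4.49 against 6.03. In ab9110 DMSO the median fold of desert peaks was 3.30 (2.11 to 16.1), with a median pileup of 11 fragments, and other peaks had 3.28 and 14. After dTAG it was 3.59 (3.10 to 8.25) with a pileup of 8, where other peaks had 3.78 and 12, and 30 of the 276 peaks passed a q-value of 0.001. Input desert peaks had a median fold of 4.55 and a pileup of 8, and other input peaks had 4.55 and 9. Mean fragment coverage was 3.64 for C29F4, 2.11 for ab9110 DMSO, 1.23 for dTAG and 0.978 for input. Most dTAG and input desert peaks therefore rested on few fragments.

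To see whether desert sites were called with both HA antibodies, their C29F4 peaks were set against ab9110 in DMSO. Per the study's methods the ab9110 ChIP was a separate experiment, so antibody and experiment cannot be told apart. Of the 489, 259 overlapped an ab9110 DMSO peak by at least 1 bp (53.0%, 48.4 to 57.5%). Over all C29F4 peaks the share was 67%. Gene-near intergenic peaks, those outside genes within 100 kb of a start, overlapped in 62.7% and all other peaks in 67.6%. The difference between desert and other peaks was -14.7 percentage points (95% Newcombe interval -19.2 to -10.2), and between desert and gene-near peaks -9.78 points (-14.4 to -5.16). In the other direction, 261 of 1524 ab9110 DMSO desert peaks overlapped a C29F4 peak (17.1%, 15.3 to 19.1%), against 18.1% of the whole list. That differed from the other DMSO peaks by -1.05 points (-2.90 to 0.957), an interval that includes 0.

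The dTAG list tells which HA peaks were called again after EHMT2 depletion. A missing call in that shallower library does not by itself show that a peak depended on EHMT2. Of 1524 ab9110 DMSO desert peaks, 78 overlapped a dTAG peak (5.12%, 4.07 to 6.35%), where 18.9% of the whole list did. The share was 16.3% for gene-near intergenic and 19.4% for all other DMSO peaks, so the desert share was lower by more than the counting error (difference from other peaks -14.3 points, -15.4 to -13.0). C29F4 desert peaks overlapped a dTAG peak in 49 of 489 cases (10.0%, 7.51 to 13.0%), against 21.7% of the list and 22.2% of other peaks (difference -12.2 points, -14.7 to -9.10). Depth and strength moved with this result. The dTAG library had 58.2% of the DMSO coverage. With fragments thinned to that share, 34.0% of DMSO desert peaks and 40.0% of other DMSO peaks were expected to stay callable, and of those expected to stay, 11.4% and 31.2% overlapped a dTAG peak.

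The 78 DMSO desert peaks that were also called after dTAG were strong. Their folds ran from 2.52 to 16.1 with a median of 5.13 and a median pileup of 21.5 fragments. The 1446 without a dTAG peak had a median fold of 3.28 and a pileup of 11, with a highest fold of 12.04. After thinning, 75.8% of the first group and 31.8% of the second were expected to stay callable. These shares come from thinning the fragments at each summit by calculation.

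The few strong dTAG desert peaks were mostly also called in DMSO, and most weak ones were not. In all, 79 of 276 overlapped an ab9110 DMSO peak (28.6%, 23.4 to 34.3%), against 46.8% of the whole dTAG list and 47.1% of other peaks (difference -18.5 points, -23.5 to -12.8). Among the 89 dTAG desert peaks with q under 0.01, 54 overlapped a DMSO peak (60.7%), beside 60.8% of other peaks. Among the 30 with q under 0.001, 29 did (96.7%, 82.8 to 99.9%), beside 69.5%, a difference of 27.2 points (13.8 to 30.2) in the opposite direction. The call of fewer shared peaks thus rested on dTAG peaks near the q-value limit. A further 50 of the 276 overlapped a C29F4 peak (18.1%, 13.8 to 23.2%), against 14.8% of the list, and the difference of 3.33 points from other peaks had an interval that includes 0 (-0.806 to 8.33).

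Few desert peaks overlapped an input peak, and the same was true of the whole lists. None of the 489 C29F4 desert peaks overlapped an input peak, which allows a share of up to 0.613% by the limit of 3 counts (exact upper bound 0.752%), where 0.981% of the whole list did. The count was 3 of 1524 for ab9110 DMSO (0.197%, list 0.627%) and 0 of 276 for dTAG (up to 1.09% by 3 counts, exact bound 1.33%, list 0.649%). The input list had the lowest coverage and only the dTAG treatment.

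**Figure D2:**
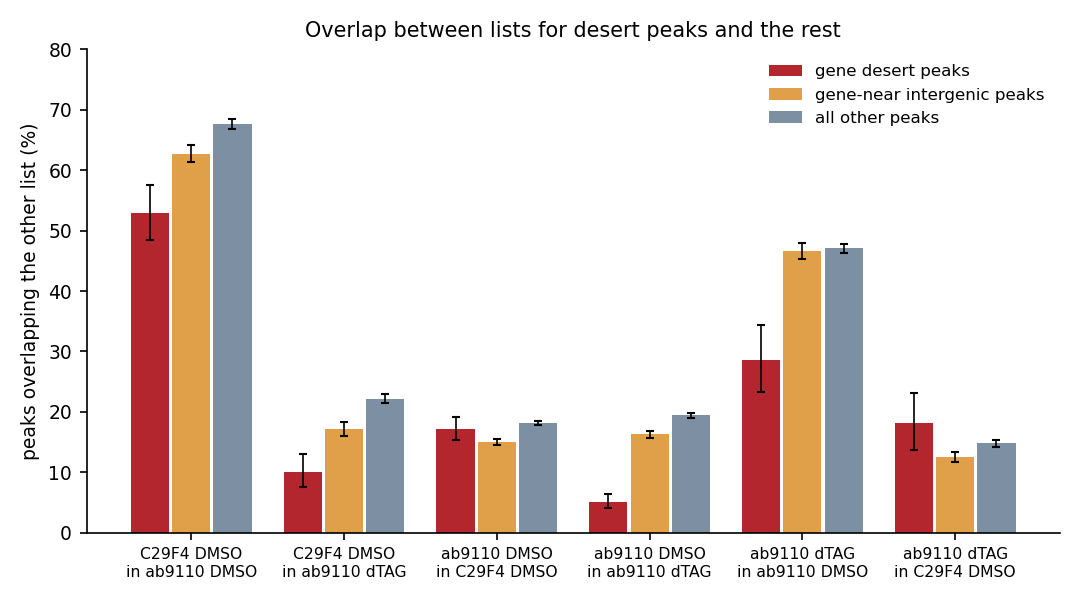
Share of peaks of one list that overlap a peak of another by at least 1 bp, for gene desert, gene-near intergenic and all other peaks; bars start at 0 and error bars are exact 95% binomial intervals. Desert bars are lowest for C29F4 in ab9110 DMSO (53.0%), ab9110 DMSO in dTAG (5.12%) and dTAG in DMSO (28.6%), and not for ab9110 DMSO in C29F4 (17.1%).

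Peak strength was matched coarsely by splitting each list into quintiles, 5 groups of equal size, of -log10 q. The strongest quintile ran from 16.5 to 899 in C29F4 and from 4.99 to 233 in ab9110 DMSO. Strength could therefore still differ within a quintile, and the weighted differences below carry no interval. In the weakest quintile of C29F4, 30.8% of 130 desert peaks overlapped an ab9110 DMSO peak, beside 41.3% of other peaks. In the fourth quintile the shares were 82.1% of 78 and 82.2%, and in the strongest 91.1% of 45 and 97.3%. With the other peaks weighted to the quintiles of the desert peaks, their share was 60.7%, which leaves a difference of -7.73 points. For C29F4 peaks in the dTAG list the weighted difference was -7.17 points, and in the fourth quintile the desert share was 24.4% beside 23.1%. For ab9110 DMSO peaks in the dTAG list, the desert share was the lower in all 5 quintiles, from 0.686% beside 4.93% in the weakest to 24.5% beside 46.5% in the strongest, and the weighted difference was -11.0 points. For dTAG peaks in the DMSO list, the weighted difference was -4.19 points.

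**Figure D3:**
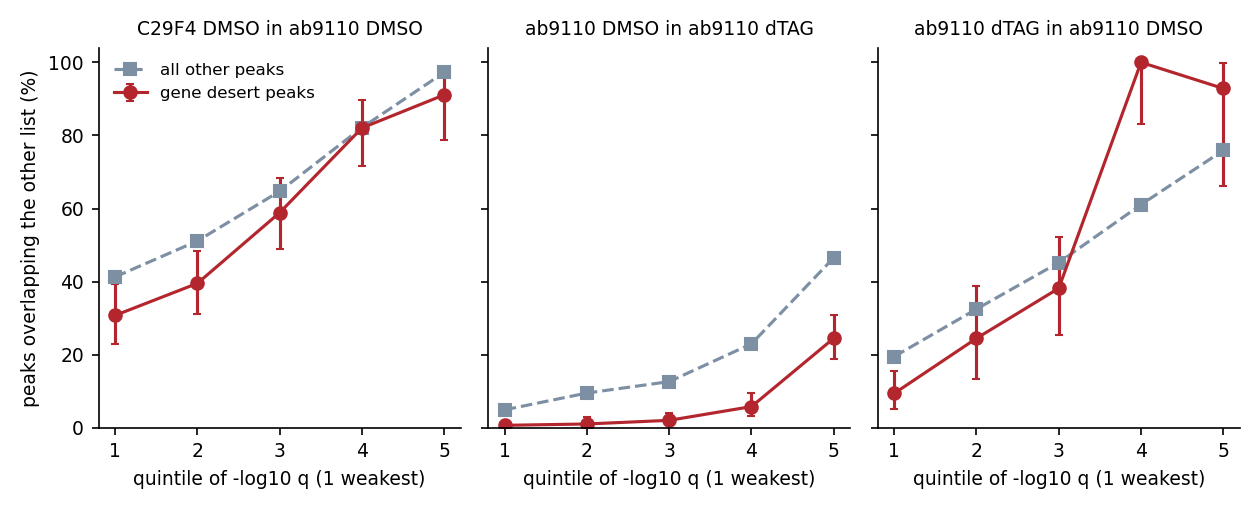
Share of peaks overlapping another list, by quintile of -log10 q within the list (1 is the weakest), for gene desert peaks with exact 95% binomial intervals and for all other peaks. The desert line reaches the other line in C29F4 (82.1% and 82.2% in the fourth quintile), stays under it for ab9110 DMSO in dTAG, and crosses it for dTAG in DMSO, where the upper quintiles hold 20 and 14 desert peaks.

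Sorted by the ab9110 lists together, the C29F4 desert peaks fell mainly in a pair of classes. In the class called with ab9110 in DMSO and not after dTAG were 213 (43.6%, 39.1 to 48.1%), against 46.1% of the whole list, with a difference of -2.69 points from other peaks whose interval includes 0 (-7.12 to 1.84). In no ab9110 ChIP list were 227 (46.4%, 41.9 to 50.95%), against 32.2% of the list, 14.9 points (10.4 to 19.4) above other peaks. A further 46 were called in both treatments (9.41%, 6.97 to 12.3%), against 20.8% of the list, a difference of -11.97 points (-14.4 to -8.96). In dTAG alone were 3 (0.613%), against 0.817% of the list. The peaks in neither list were weak, with a median fold of 3.45 and pileup of 18, where those of the DMSO class had 3.88 and 25 and those in both 4.38 and 33. In the same order of classes, median GC was 40.7%, 44.0% and 44.8%, and the soft-masked share was 33.2%, 44.1% and 51.3%.

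The strongest peak of the DMSO class lay between Nphp4, a gene of the primary cilium, and Ajap1, an adherens junction gene, 102093 bp from the nearest start. Its fold was 19.9 in C29F4 (240 fragments over a background of 11.1) and 12.04 in ab9110 DMSO. The peak between the cell polarity gene Pard3 and the neuropilin gene Nrp1 had folds of 11.4 and 5.74. The peak between Lrp1b, a gene of the LDL receptor family, and the kynureninase gene Kynu had 9.49 and 6.76. The peak between the helicase gene Ddx18 and Dpp10 had 9.45 and 5.92, and that between Tmem229a and the orphan receptor gene Gpr37 had 9.06 and 4.29. None of these 5 had a peak after dTAG or in input, by the way they were chosen. After the first 2, C29F4 folds were close to each other, between 9.06 and 9.49.

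Of the peaks called in both treatments, the one between the Groucho corepressor gene Tle4 and the serine synthesis gene Psat1 had folds of 8.91 in C29F4, 16.1 in ab9110 DMSO and 6.48 after dTAG. The peak between Abca13 and the BMP antagonist gene Vwc2 had 8.84, 7.08 and 4.29. The peak between Rap2b and Arhgef26 had 8.39, 5.19 and 4.44. The dTAG fold was the lowest of the 3 values at each site. Fold is relative to each library's own background, and the constant added to pileup and background lowers it more where fragments are few. These values were therefore not tested against each other.

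The strongest C29F4 desert peak in no ab9110 list had a fold of 6.48 and lay in the Kcnh7 to Fign interval, 40447 bp from the body of Fign, which encodes an AAA ATPase, and 166928 bp from its start. Next came a peak on chromosome 18 between Fbxo15, an F-box gene expressed in embryonic stem cells, and Neto1, with a fold of 6.29, and a peak between Glrx3 and Tcerg1l with 5.93. All 3 were above the median of the C29F4 desert peaks, 3.67, and none had an ab9110 peak.

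The dTAG desert peaks of highest fold without a peak elsewhere were low. The peak between the receptor phosphatase gene Ptprd and the melanin synthesis gene Tyrp1 had a fold of 4.79 and 16 fragments. The peak between the adhesion gene Nectin3 and Dppa4, a gene of pluripotent cells, and the peak between Rorb and Anxa1 each had 4.49 and 9 fragments. For ab9110 DMSO, the 2 highest without a peak elsewhere both had a fold of 8.69 and 26 fragments, between Cntnap5b and Cdh20 and between Lrrtm4 and Gcfc2.

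Sequence around the summits was richer in GC than the desert it lay in. Over 300 bp, median GC was 43.0% in C29F4, 45.7% in ab9110 DMSO, 42.8% after dTAG and 42.3% in input desert peaks, and 38.0% over the 570953 windows of admitted sequence. Other peaks of the same lists had 47.3%, 49.3%, 55.0% and 46.7%, and gene-near intergenic peaks had 45.0%, 48.0%, 50.0% and 46.3%. CpG-rich windows, with GC over 50% and a CpG observed over expected ratio over 0.6, made up 15 of the C29F4 desert peaks (3.07%, 1.73 to 5.01%), 43 of ab9110 DMSO (2.82%) and 7 of dTAG (2.54%), against 0.160% of admitted windows and none of the 96 in input (up to 3.13%). In the dTAG list, 40.4% of other peaks were CpG-rich. Gene-near intergenic peaks were CpG-rich in 2.93% of C29F4, 8.13% of ab9110 DMSO, 27.7% of dTAG and 7.24% of input. The C29F4 desert share was thus close to the gene-near share. On average 39.9% of the bases were soft-masked in C29F4 desert peaks, close to the 38.9% of admitted windows, but 53.3% in ab9110 DMSO, 52.9% after dTAG and 72.7% in input.

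Motifs were searched as exact letters on either strand in the 300 bp window centred on the summit, and a window could hold several of them, overlapping or not. ESRRB is a nuclear receptor of the pluripotency network, and its motif TCAAGGTCA was in 18 of 489 C29F4 desert peaks (3.68%, 2.196 to 5.76%) and 35 of 1524 ab9110 DMSO desert peaks (2.30%, 1.60 to 3.18%). It was in 0.417% of all admitted windows, and in 0.462% when these were weighted to the GC of the C29F4 desert peaks. The C29F4 share was above that of other C29F4 peaks (1.98%, difference 1.70 points, 0.334 to 3.78), while in ab9110 DMSO the shares of desert and other peaks differed by 0.0390 points (-0.619 to 0.931). After dTAG it was in 5 of 276 (1.81%, 0.591 to 4.18%), and in input in none of 96, which allows 3.13%. The 18 C29F4 peaks with the motif had folds from 1.87 to 9.06, and 14 of them overlapped an ab9110 DMSO peak, where 52.0% of those without it did. Of the 18, 6 overlapped a dTAG peak (33.3%), beside 9.13% of those without the motif and 21.7% of the whole list. In ab9110 DMSO, 4 of 35 desert peaks with the motif did (11.4%), beside 4.97% of those without it and 18.9% of that list. Both shares with the motif rest on few peaks. In C29F4, desert peaks with the motif also had the higher median fold, 4.37 against 3.67, and the part of the fold in these shares was not tested. Peaks with the motif that were called in both treatments included the peak between Clec14a and Sec23a, with folds of 6.58, 6.25 and 3.65, and the peak between the cadherin genes Cdh12 and Cdh18, with 4.76, 5.53 and 3.95.

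AP-1 and YY1 motifs differed between desert and other peaks in all 3 ChIP lists. The other peaks include those in long soft-masked runs, which the desert class leaves out by its rule. Windows soft-masked throughout made up 28.1%, 14.6% and 10.5% of other peaks in C29F4, ab9110 DMSO and dTAG, and 6.34%, 14.3% and 14.9% of desert peaks. Their part in the motif differences was not tested, and no motif share was computed for gene-near intergenic peaks. The AP-1 motif TGANTCA was in 13.9% of C29F4, 12.3% of ab9110 DMSO and 12.7% of dTAG desert peaks, against 8.99%, 8.85% and 7.004% of other peaks, and the differences of 4.91, 3.49 and 5.68 points had intervals above 0 (lower bounds 2.07, 1.91 and 2.23). It was in 9.07% of admitted windows and 6.25% of input desert peaks. N stands for any base, so this pattern also takes in TGAATCA and TGATTCA, beyond the usual AP-1 site TGA(C/G)TCA. The forms were not counted apart, and the part of the lower GC of desert peaks in the difference was not tested. The SOX motif ACAATGG was in 9.20%, 8.33% and 10.1% of the desert peaks of the 3 ChIP lists against 5.93% of admitted windows, but input desert peaks had it in 9.38%. Its difference from other peaks was above 0 in the ab9110 lists (1.98 and 5.28 points), and the interval included 0 in C29F4. The octamer ATGCAAAT, read by POU factors such as OCT4, was in 4.70%, 4.07% and 3.26%, against 3.44% of windows. Input desert peaks had it in 6.25% (2.33 to 13.1%), above all 3 ChIP shares. Its difference from other peaks was above 0 in ab9110 DMSO (1.19 points) and in input (4.10 points, 0.660 to 10.8). The interval included 0 in C29F4 and dTAG. YY1 is a zinc finger protein, and its motif AAGATGG was in 15.5% of C29F4 desert peaks. It was in 7.56% of windows, and in 9.90% when these were weighted to the GC of the C29F4 desert peaks. Other C29F4 peaks had it in 29.6% (difference -14.1 points, -17.2 to -10.5), and its differences in ab9110 DMSO and dTAG were -2.31 and -7.69 points. Input desert peaks held the YY1 motif in 15.6% (9.02 to 24.5%), close to the C29F4 share. The KLF motif GGGTGTG was in 6.54%, 8.60% and 7.25%, against 3.27% of windows, and the interval of its difference from other peaks included 0 in each list. CACGTG, an E-box read by MYC and USF factors, was in 2.25%, 2.23% and 1.45%, against 1.79% of windows and 2.22%, 2.45% and 2.19% of windows weighted to the GC of the peaks. Desert peaks had it less often than other peaks in ab9110 DMSO and dTAG (-2.98 and -6.59 points), and the interval included 0 in C29F4. AGGGGGC, part of the CTCF motif, was in 1.23%, 1.84% and 1.45%, against 1.41% of windows and 2.28%, 2.77% and 2.19985% of windows weighted to GC. Its differences from other peaks were -2.71 points in ab9110 DMSO and -6.96 in dTAG, where 8.41% of other peaks held it, and the interval included 0 in C29F4. Of the repeats, CACACACA was in 2.04%, 4.86% and 4.71% of the desert peaks of C29F4, ab9110 DMSO and dTAG, against 7.36% of windows. GAGAGAGA was in 3.27%, 6.89% and 5.43%, against 4.82% of windows and 6.21%, 6.77% and 6.04% of windows weighted to GC. Desert peaks had GAGAGAGA more often than other peaks in ab9110 DMSO (1.496 points, 0.308 to 2.90). Its interval included 0 in C29F4 and dTAG, and that of CACACACA included 0 in each list.

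**Figure D4:**
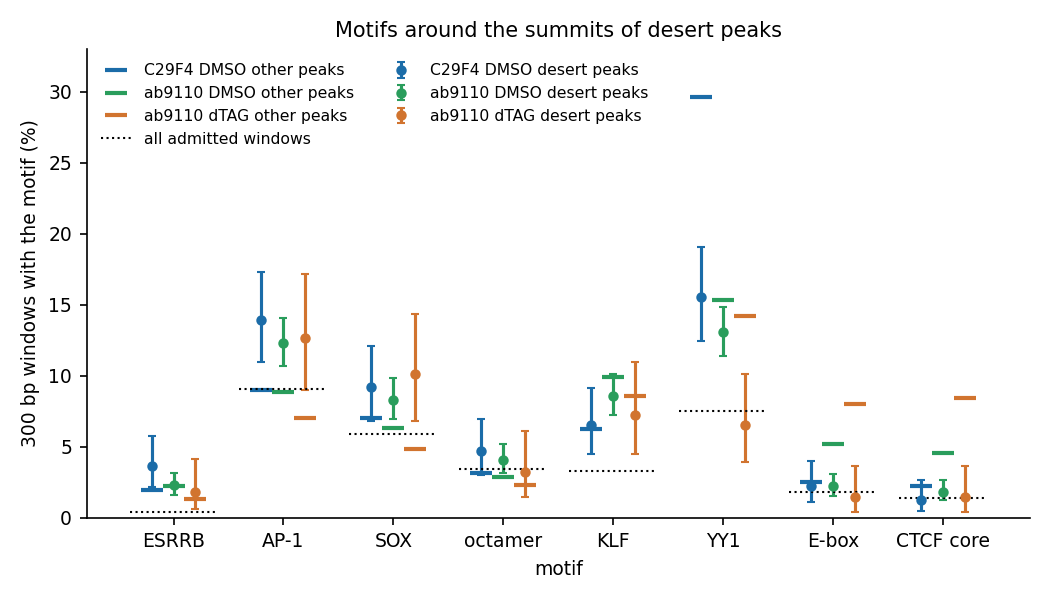
Share of 300 bp summit windows that hold each motif, for desert peaks (points with exact 95% binomial intervals) and other peaks (dashes) of the 3 ChIP lists, with all admitted windows as dotted lines. ESRRB lies above the dotted line in all 3 lists (3.68%, 2.30% and 1.81% against 0.417%). The AP-1 pattern TGANTCA, with N any base, is higher in desert than in other peaks, and YY1 is lower.

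The C29F4 desert peaks lay in 299 of the 1482 gene-free intervals (20.2%), and 184 of these held a single peak. The ab9110 DMSO desert peaks lay in 641, the dTAG peaks in 219 and the input peaks in 84 intervals. Peaks of C29F4 and ab9110 DMSO shared 254 intervals, which are 84.9% of the C29F4 and 39.6% of the DMSO intervals. In C29F4, 26.6% of desert peaks had another peak of the list within 10 kb, as did 32.6% in ab9110 DMSO, 6.16% after dTAG and 2.08% in input.

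The interval with most C29F4 desert peaks lay between Csmd1, a large complement-related gene expressed in brain, and Mcph1, the microcephalin gene, on chromosome 8. It held 11 C29F4 peaks with folds from 2.31 to 5.44, 10 ab9110 DMSO peaks, 2 dTAG peaks and no input peak. Of the 11, 4 were called in DMSO and not after dTAG, and 7 in no ab9110 ChIP list. The interval between Gucy1a2 and Aasdhppt on chromosome 9 held 7 C29F4 and 12 DMSO peaks with 1 dTAG peak. The interval between the potassium channel gene Kcnh7 and Fign held 7, 8 and 3, and that beside the glutamate receptor gene Grin2a 6, 16 and 2. The interval with the protocadherin genes Pcdh20 and Pcdh9 as its nearest protein-coding genes, 2728 kb and 1375 kb away, held 5, 6 and 1, and 2 input peaks. Of the intervals with most admitted sequence, that between Dsel and Cntnap5a held 5 C29F4 peaks in 967 kb, that between Ankrd7 and the potassium channel gene Kcnd2 held 4 in 912 kb, and that between Cobl and Pom121l12 held 5 in 896 kb, beside 16 DMSO and 6 dTAG peaks. The last had the most dTAG desert peaks of the 8 intervals named here.

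The nearest protein-coding gene on either side of each interval, which can lie far beyond the interval's end, was looked up in lists of genes. Neural adhesion and synapse genes, the families of cadherins, protocadherins, contactins and their like, flanked intervals in this sense with 27.9% of admitted bases and 147 of 489 C29F4 desert peaks (30.1%, 26.0 to 34.3%). Their share was 25.3% (23.1 to 27.5%) in ab9110 DMSO, 28.3% after dTAG and 27.1% in input. The 10 intervals whose nearest protein-coding gene on a side was Cdh8 held 14 C29F4 desert peaks. The same count was 11 over 2 intervals for Csmd1, 10 over 11 intervals for the ephrin receptor gene Epha7, and 8 each for Cdh6 and Cdh9, over 9 and 12 intervals. Developmental transcription factor genes flanked 7.04% of admitted bases and 27 C29F4 desert peaks (5.52%, 3.67 to 7.93%), among them 3 flanked by Sall1 and 2 each by Bcl11a, Dach1 and Eya1. Pluripotency genes flanked 0.923% of admitted bases and 7 C29F4 desert peaks (1.43%, 0.577 to 2.93%), 5 of them flanked by Fbxo15, 1 by Mycn and 1 by Sox2. Zinc finger protein genes flanked 1.30% of bases and 5 peaks, 3 of them by Zfp951 and 2 by Zfp804a. Sensory receptor genes flanked 0.251% and 1 peak, by Olfr1505, and genes of H3K9 methylation flanked 0.180% and no C29F4 peak (up to 0.613% by the limit of 3 counts). For each list of genes, the interval of the C29F4 share held the share of admitted bases, while the ab9110 DMSO share of neural adhesion and synapse genes lay below it.

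The desert peaks were not spread evenly over chromosomes. Chromosome 8 held 71 of the 489 C29F4 desert peaks (14.5%) in 5.74% of the admitted bases, a density of 7.19 per Mb (5.62 to 9.07), where the chromosomes other than 8, X and Y had 2.77 per Mb (2.51 to 3.05). The 71 peaks lay in 37 intervals. The other C29F4 peaks were also densest there, at 7.4995 per Mb. For ab9110 DMSO the desert densities were 15.2 and 9.10 per Mb, for dTAG 3.34 and 1.59, and for input 0.810 (0.350 to 1.60) and 0.565 (0.451 to 0.699), where the intervals overlap. On chromosome 8 the C29F4 desert peaks were weaker, with a median fold of 3.23 against 3.74, and 24 of 71 overlapped an ab9110 DMSO peak (33.8%, 23.0 to 46.0%), where 235 of 418 on all other chromosomes did (56.2%, 51.3 to 61.0%). The median background at desert summits was 4.34 fragments on chromosome 8 and 4.21 on the chromosomes other than 8, X and Y in C29F4, 2.95 and 2.1999 in ab9110 DMSO, and 1.33 and 1.23 after dTAG. Its part in these counts was not tested, and chromosome copy number in these cells was not analysed here. The X chromosome had 6 C29F4 desert peaks (0.543 per Mb, 0.199 to 1.18) and 21 of ab9110 DMSO (1.90 per Mb). The Y chromosome had no desert peak in any list in 2.48 Mb of admitted sequence, which allows up to 1.21 per Mb by the limit of 3 counts. Without chromosome 8 the C29F4 density ratio was 0.630, and the difference in overlap with ab9110 DMSO from other peaks was -12.8 points.

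**Figure D5:**
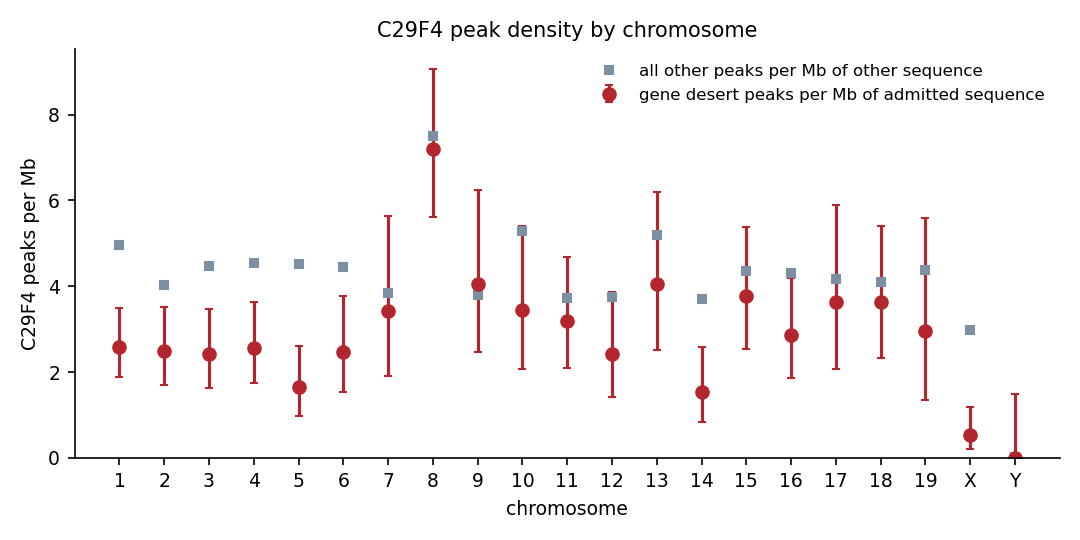
C29F4 peaks per Mb by chromosome, for gene desert peaks per Mb of admitted sequence (points with exact Poisson 95% intervals) and for all other peaks per Mb of other sequence (squares). Chromosome 8 has the highest density of desert peaks (7.19 per Mb) and of other peaks (7.4995 per Mb), and X has 0.543 desert peaks per Mb.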

How the data were processed

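HA ChIP-seq and input chromatin of EHMT2-dTAG mESCs were used as deposited peak lists on mm10. Per the study's methods, the authors aligned trimmed reads with STAR 2.7.10, placing each multimapping read at 1 location, removed duplicates with Picard 2.26.0 and high-signal regions, and called peaks with MACS2 2.2.6 at a q-value under 0.05. The integer score of the C29F4 list follows the q-value and its peak numbers have no gaps, while the scores of the ab9110 and input lists follow the p-value and their peak numbers have gaps. The lists therefore differ in how they were called or filtered, and the steps were not given in the sources used here. Whether a control library entered the calls was not given in the sources used here. The deposited fold is the authors' ratio of pileup to local background at the summit, with 1 added to each. The integer score and the -log10 p and q were also deposited as the authors' caller gave them. The score was not used. Pileup and background were rebuilt from fold and p-value, which succeeded for 100% of peaks. The lowest background gave the mean coverage.

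Genes and starts came from GENCODE M21, and sequence and soft-masking from the RefSeq copy of the same assembly, which names no repeat families. Peaks sharing 1 bp or more counted as overlapping, computed with Python 3.11.15 and scipy 1.17.1, checked on simulated peaks against bedtools 2.31.1. Shares carry exact Clopper-Pearson 95% intervals, densities exact Poisson intervals, and differences between desert and other peaks of a list Newcombe intervals, where a difference was called if the interval left out 0. Peaks are not independent samples, and all intervals cover counting error only. A count of 0 is given with the limit that 3 counts would set, which is tighter than the exact upper bound. Named peaks were the C29F4 desert peaks of highest fold called with ab9110 in DMSO only (5), in both treatments (3) or in neither (3), the dTAG (3) and DMSO (2) desert peaks of highest fold seen in no other list, and the 2 highest of input. Named intervals were the 5 with most C29F4 desert peaks and the 3 with most admitted sequence, and up to 5 genes with most C29F4 desert peaks were named per list of nearest protein-coding genes, except 1 item that is not reported here. Members, motifs and gene lists were chosen with earlier results of these data known.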

Additional observations from a re-analysis of the deposited data

How the results depend on the processing

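Each choice was changed alone. Of 58 recomputed differences in overlap, 45 kept their direction and their side of 0. Desert shares for C29F4, ab9110 DMSO, ab9110 dTAG and input were 0.881%, 0.870%, 0.331% and 1.12% over 200 kb from a start, 10.9%, 9.60%, 4.77% and 10.5% over 50 kb, 22.8%, 19.6%, 9.99% and 19.8% with protein-coding genes only, and 7.43%, 4.94%, 2.60% and 7.76% with long repeats kept. At a q-value under 0.01 the shares of the last 3 lists were 3.16%, 0.903% and 3.72%, and under 0.001 they were 2.68%, 0.503% and 2.63%. The DMSO share was 3.20% after thinning to the dTAG coverage and 2.82% with lists of equal size, reduced to the same number of strongest peaks. The density ratio of C29F4 became 1.095 and that of input 1.15 with long repeats kept. The interval of the input ratio included 1 with long repeats kept (0.972 to 1.35) and over 200 kb from a start (ratio 0.704). The ratios of the ab9110 ChIP lists stayed below 1 under each alternative run.

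The share of C29F4 desert peaks in ab9110 DMSO was 46.0% with q under 0.001 in both lists, 64.7% with long repeats kept, 45.0% for an overlap of 50% of the peak, 43.6% for summits at most 250 bp apart, 41.5% with lists of equal size and 35.8% after thinning. Their share in dTAG was 5.21% (q under 0.001), 13.1% (protein-coding genes only), 20.3% (long repeats kept) and 5.52% (overlap of 50%). With long repeats kept, the differences from other peaks were -2.49 and -1.48 points with intervals that include 0. The share of DMSO desert peaks in dTAG was 6.88% and 6.60% at the stricter q-values, 7.198% with protein-coding genes only, 10.2% with long repeats kept, 2.30% for an overlap of 50%, 14.1% with lists of equal size and 11.4% after thinning, and the difference from other peaks stayed below 0 under each. The share of dTAG desert peaks in DMSO was 56.2% and 86.7% at the stricter q-values in both lists, 35.4% with protein-coding genes only, 48.7% with long repeats kept and 21.8% after thinning. Its difference from other peaks became 3.22 and 35.1 points at the stricter q-values and 1.99 with long repeats kept, and weighting by quintiles of q left -4.19 points, with the desert share below the other in 3 of 5 quintiles. The share of DMSO desert peaks in C29F4 was 28.8% and 42.6% at the stricter q-values, 26.4% with long repeats kept, 11.2% for an overlap of 50%, 14.2% by summits, 43.4% with lists of equal size and 32.96% after thinning. Its difference, whose interval included 0, became 2.29 and 7.38 points at the stricter q-values, 8.73 with long repeats kept, 0.192 by summits, 7.27 with lists of equal size and 2.82 when weighted by quintiles, and -4.77 with summits in RefSeq genes left out. The interval left out 0 on the positive side at q under 0.001, with long repeats kept and with lists of equal size, and on the negative side with summits in RefSeq genes left out. The cause of these changes was not tested.

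Median GC of ab9110 DMSO desert peaks was 46.5% in 200 bp windows and 46.7% at q under 0.001, and that of dTAG 49% at q under 0.001. Intervals with a desert peak numbered 825, 1257 and 739 for C29F4, ab9110 DMSO and dTAG with protein-coding genes only, and 263 and 29 for the ab9110 lists at q under 0.001. Leaving out chromosome 8, leaving out summits in RefSeq genes and weighting by quintiles were chosen after the data were seen. No paired analysis was possible because the C29F4 list merges the replicates that carry shared numbers and each other condition has 1 list, and for the same reason no replicate could be left out. Shallow lists limit the dTAG and input counts.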

Other observations

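The 2 input desert peaks of highest fold had folds of 23.0 and 8.93. The first rested on 54 fragments over a background of 1.39, was soft-masked over its whole length and had no peak in a ChIP list. The second, between Sema6d and the pigmentation gene Slc24a5, was also soft-masked over its whole length and overlapped an ab9110 DMSO peak of fold 2.11. Of the 96 input desert windows of 300 bp, 47.9% were soft-masked throughout, against 9.31% of admitted windows, 6.34% of C29F4 desert windows, 14.3% of ab9110 DMSO and 14.9% of dTAG.

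RefSeq places genes in part of this sequence. Of the C29F4 desert peaks, 33 (6.75%) had their summit inside a RefSeq gene or pseudogene. The same held for 86 of ab9110 DMSO (5.64%), 11 of dTAG (3.99%) and 3 of input (3.13%). Of the admitted bases, 4.86% lay in RefSeq genes or pseudogenes. Whether GENCODE lacks these genes or gives them other limits was not analysed. Of the 1482 gene-free intervals, 754 held no desert peak of a ChIP list and 100 held one of each ChIP list.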
